A study of Rattus norvegicus with 24 samples.

Results

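Lama4, Col1a2, Col3a1 and Adamts9 are 4 genes of the vascular basement membrane and of the collagen matrix around vessels, out of 14218 genes with a probe of 1 symbol on the array. They were picked with differences from Sham in an earlier reading of the same arrays in view. Their values in the contrasts against Sham are therefore given as a description, with no test, and only the contrast between the 2 models was tested. All 7 probes that carry 1 of these symbols alone are described separately, 2 each for Lama4, Col1a2 and Adamts9 and 1 for Col3a1.

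RNA of microvessels isolated from rat brain cortex was hybridised to 24 arrays in 3 groups of 8. HAL and HEP are models of acute liver failure. Rats of both groups had a portocaval anastomosis, a shunt that takes blood of the portal vein around the liver, and after 24 h the hepatic artery was tied off in HAL and the whole liver was taken out in HEP, while Sham rats went through a mock operation in 2 steps without either. No group had the shunt alone, so its part in a difference of a model from Sham cannot be told apart. All rats were decapitated 8 to 12 h after the last operation. The labels used here give no strain, sex or age. Nothing in them ties each array to a rat of its own, so p-values reflect only how far arrays of a group differ, which may be technical.

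The deposited cells hold only the decimals of RMA log2 signals, without the integer part. A signal below 10 leaves 9 digits and a signal of 10 or more leaves 8. For 2527 of 31099 probes, those with 1 to 14 nine-digit cells of 24, the signal was taken to lie near 10, and a cell was read as 9 or 10 plus its decimals. Of the member probes 5 were of this kind, at least 1 for each gene. Shorter cells were not read. Where a signal below 10 lost a zero at either end of its decimals, 8 digits remain, and the reading comes out too high. A cell of 9 digits lies below 10, and a cell of 8 digits lies at 10 or above only if no zero was lost. The size of a difference between sides is known only if no array lies outside the range from 9 to 11. Probes outside this class are compared by their decimals, which give a difference only up to whole units.

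The basement membrane is a sheet of laminins, type IV collagen, nidogen and heparan sulphate proteoglycans on which endothelial cells and pericytes rest. Laminin chains join as trimers of an alpha, a beta and a gamma chain, and Lama4 encodes the alpha 4 chain, which is typical of endothelial basement membranes. Col1a2 encodes the alpha 2 chain of type I collagen and Col3a1 the chain of type III collagen. Both are fibrillar collagens of the interstitial matrix, made in the brain mainly by fibroblasts around larger vessels and in the meninges. Adamts9 encodes a secreted metalloprotease that cleaves the proteoglycans versican and aggrecan.

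The bases just before the transcription start are shown because 1 probe each of Lama4, Col1a2 and Col3a1 had a lower mean reading in both models than in Sham, and 1 of 2 Adamts9 probes a higher one. RefSeq promoter windows of build GRCr8 were held for 3 of the 4 genes: chr20:43946648-43946897 on the plus strand for Lama4, chr4:33518307-33518556 on the plus strand for Col1a2 and chr4:127019877-127020126 on the minus strand for Adamts9. Each run has 250 bases, 5′ to 3′, and ends at the base before the start. Capitals mark matches, on either strand, to the TATA box TATAAA, the CCAAT box CCAAT, the GC box GGGCGG and the hypoxia response core ACGTG.
Lama4: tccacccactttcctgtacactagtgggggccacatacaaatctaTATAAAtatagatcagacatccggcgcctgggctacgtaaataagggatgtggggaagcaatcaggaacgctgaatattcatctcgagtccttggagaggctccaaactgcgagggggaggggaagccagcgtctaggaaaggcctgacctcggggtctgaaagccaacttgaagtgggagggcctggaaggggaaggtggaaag
Col1a2: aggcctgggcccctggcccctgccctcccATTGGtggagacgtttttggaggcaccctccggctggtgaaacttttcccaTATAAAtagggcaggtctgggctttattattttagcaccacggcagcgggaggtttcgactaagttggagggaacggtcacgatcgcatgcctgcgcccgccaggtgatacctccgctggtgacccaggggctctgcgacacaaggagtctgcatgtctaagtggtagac
Adamts9: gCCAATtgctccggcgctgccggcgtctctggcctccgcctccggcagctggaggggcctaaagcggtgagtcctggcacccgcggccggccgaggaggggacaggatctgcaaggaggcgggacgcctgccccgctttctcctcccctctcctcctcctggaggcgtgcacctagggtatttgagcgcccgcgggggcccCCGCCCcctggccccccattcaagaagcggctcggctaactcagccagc
TATAAA lay 205 bases before the start in Lama4 and 170 bases before it in Col1a2, and 12.9% of 33469 windows of this length held it. CCAAT lay 249 bases before the start in Adamts9, and on the other strand, as ATTGG, it lay 221 bases before it in Col1a2, against 34% of windows. GGGCGG was found in Adamts9 alone, as CCGCCC 49 bases before the start, against 30.5% of windows. ACGTG was found in none of the 3 windows and in 16.6% of all. GC content was 53.2% in Lama4, 58.4% in Col1a2 and 71.6% in Adamts9, and the median window had 51.2%. A match is a string of letters and was not tested as a site.

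The markers of brain vessels were present. Of 16 endothelial marker genes with a probe, 13 had one at 10 or above on all arrays, as did 4 of 14 pericyte and 6 of 12 perivascular fibroblast markers, against 0 of 15 neuronal and 0 of 12 microglial and macrophage markers. Other cells were represented too, with 5 of 12 astrocyte and 2 of 9 oligodendrocyte markers and 1 of 3 red cell markers at that level. Of the neuronal genes 6 had a probe near 10. The arrays' median readings lay between 9.95 and 10.20. The lowest were those of HAL 2, HAL 5 and Sham 3. Across all probes near 10, 94 of 2526 passed in HAL minus Sham with limma at a Benjamini-Hochberg adjusted p under 0.05, 27 higher and 67 lower. After centring each array on its median reading, 41 were higher and 54 lower, and without the 3 arrays of lowest median 42 probes passed in all.

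Lama4 probe 1389214_at read lower in both models than in Sham. Its Sham arrays lay at 10.35 to 10.81 (median 10.60, n = 7 read), its HAL arrays at 9.30 to 10.47 (median 9.49, n = 7) and its HEP arrays at 9.38 to 9.86 (median 9.56, n = 7). All Sham arrays read were above 10 and all HEP arrays read below it, so these groups did not overlap, while 1 HAL array, HAL 6, lay within the Sham range. That cell has 8 digits and would read 9.47 if a last zero had been lost. Mean readings were 10.59 ± 0.17 in Sham, 9.66 ± 0.43 in HAL and 9.58 ± 0.17 in HEP (SD). HAL minus Sham was -0.93 (SE 0.16), and -1.08 with the HAL 6 cell read below 10. HEP minus Sham was -1.01 (SE 0.16). Leaving out any 1 array kept these differences between -1.07 and -0.87 in HAL and between -1.06 and -0.97 in HEP.

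The second Lama4 probe, 1396066_at, had 20 nine-digit cells and lay below 10. Its decimals ran from 0.31 to 0.98 in Sham (n = 7), from 0.72 to 0.87 in HAL (n = 6) and from 0.32 to 0.97 in HEP (n = 7). The HAL arrays were the most alike, with a resultant length, a measure of clustering that is 1 for equal decimals and near 0 for scattered ones, of 0.94 against 0.35 in Sham and 0.39 in HEP. As the Sham and HEP decimals were scattered over most of the range, no difference between groups could be read from this probe.

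Col1a2 probe 1387854_at read lower in HAL, and lower with more spread in HEP. Sham arrays lay at 9.94 to 10.79 (median 10.41, n = 6), HAL arrays at 9.27 to 10.16 (median 9.48, n = 7) and HEP arrays at 9.12 to 10.86 (median 9.63, n = 7). The groups overlapped: 5 of 6 Sham arrays were at 10 or above, against 1 of 7 in HAL and 2 of 7 in HEP, and HEP 8 exceeded every Sham array. Means were 10.42 ± 0.32 in Sham, 9.59 ± 0.32 in HAL and 9.81 ± 0.62 in HEP (SD). HAL minus Sham was -0.83 (SE 0.24) and HEP minus Sham -0.61 (SE 0.24).

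The other Col1a2 probe, 1370155_at, had no nine-digit cell, so its signal was at 10 or above on all arrays with a full cell. Its decimals ran from 0.16 to 0.98 in Sham (n = 5), from 0.38 to 0.90 in HAL (n = 5) and from 0.17 to 0.97 in HEP (n = 8). They were scattered in every group, with resultant lengths of 0.46, 0.57 and 0.10. This probe gave no comparison. Of 34 interstitial matrix genes with a probe, Col1a2 was 1 of 9 with such a probe, beside Fn1, Dcn, Lum and Col6a1.

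**Figure D1:**
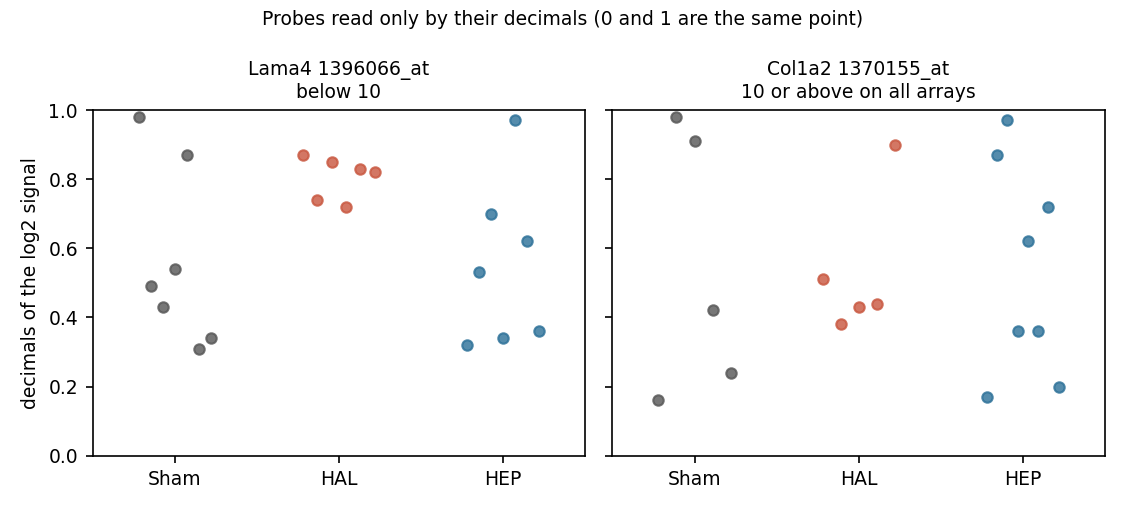
Decimals of the log2 signal (vertical axis, 0 to 1, where both ends are the same point) of the Lama4 probe below 10 and of the Col1a2 probe at 10 or above, 1 point per array read, by group. HAL arrays of the Lama4 probe lie together at 0.72 to 0.87, and the other groups are scattered.

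Col3a1 probe 1370959_at read lower in HAL, while HEP arrays lay on both sides of 10. Sham arrays lay at 10.12 to 10.86 (median 10.44, n = 7), HAL arrays at 9.20 to 9.98 (median 9.57, n = 7) and HEP arrays at 9.13 to 10.83 (median 9.99, n = 8). Every Sham array read was above every HAL array, and 4 of 8 HEP arrays were at 10 or above. Means were 10.48 ± 0.30 in Sham, 9.61 ± 0.31 in HAL and 10 ± 0.61 in HEP (SD). HAL minus Sham was -0.87 (SE 0.23) and HEP minus Sham -0.48 (SE 0.22). Leaving out any 1 array gave -0.59 to -0.35 for HEP minus Sham.

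Adamts9 probe 1376481_at ran the other way and read higher in both models. Sham arrays lay at 9.21 to 10.46 (median 9.47, n = 8), HAL arrays at 10.17 to 10.84 (median 10.54, n = 7) and HEP arrays at 10.19 to 10.71 (median 10.50, n = 8). No array read of either model was below 10 and only 1 Sham array, Sham 2, was above it, which alone made the groups overlap. That cell would read 9.46 if a last zero had been lost. Means were 9.54 ± 0.39 in Sham, 10.52 ± 0.25 in HAL and 10.47 ± 0.23 in HEP (SD). HAL minus Sham was 0.97 (SE 0.16) and HEP minus Sham 0.92 (SE 0.16). With the Sham 2 cell read below 10 they were 1.10 and 1.05.

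The second Adamts9 probe, 1394518_at, did not show this pattern. Sham arrays lay at 9.24 to 10.95 (median 9.78, n = 6), HAL arrays at 9.21 to 10.14 (median 9.31, n = 8) and HEP arrays at 9.19 to 10.90 (median 10.16, n = 7). All 3 groups overlapped, with 2 of 6, 1 of 8 and 4 of 7 arrays at 10 or above. HAL minus Sham was -0.44 (SE 0.29), of the opposite sign to the first probe, and HEP minus Sham was 0.13 (SE 0.30). Without Sham 2 they were -0.23 and 0.34, without HEP 4 the latter was -0.02, and the decimals alone gave 0.10 and 0.08. With 14 nine-digit cells this probe is at the edge of the range read as near 10, which 571 probes share, and it may lie below it. The nine-digit cells of Sham 7 and HEP 6 were equal, both 9.26, which occurred between arrays in 4.58% of all probes. Over 20 arrays read for both, the probes correlated at r = -0.13, so the higher readings of the models rest on 1 of the 2 Adamts9 probes.

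**Figure D2:**
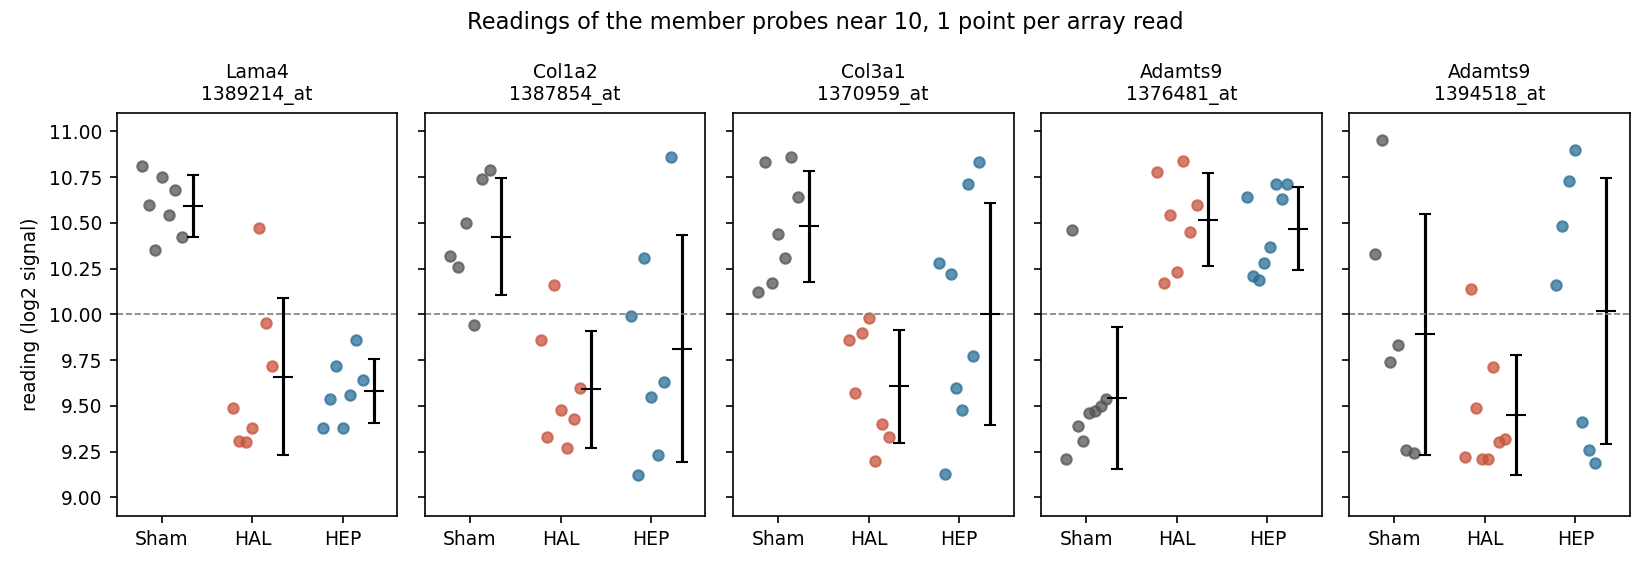
Readings of the log2 signal (vertical axis) of the 5 member probes near 10, 1 point per array read, with the mean and SD of each group in black and a dashed line at 10. Lama4 arrays of Sham lie above the line and those of HEP below it, and Adamts9 probe 1376481_at shows the reverse order with 1 Sham array at 10.46.

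The number of digits shows the same data without any reading of size. Lama4 probe 1389214_at had 0 nine-digit cells of 8 in Sham, 6 in HAL and 7 in HEP. Col3a1 had 0, 7 and 4, and Col1a2 probe 1387854_at had 1, 6 and 5. Adamts9 probe 1376481_at had 7 in Sham and 0 in each model. Cells with fewer digits may also lie below 10 where a zero was lost.

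**Figure D3:**
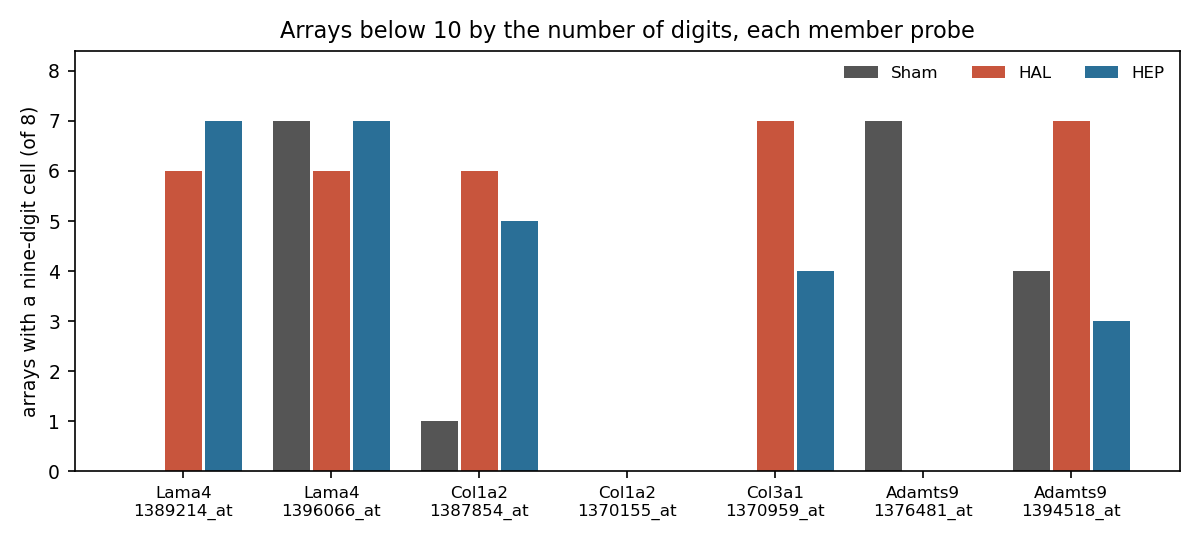
Number of arrays of 8 (vertical axis) whose cell has 9 digits, that is, lies below 10, for each of the 7 member probes, by group. Sham bars are absent for Lama4 probe 1389214_at and Col3a1, and model bars are absent for Adamts9 probe 1376481_at; Col1a2 probe 1370155_at has no bar in any group.

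Readings of HAL and Sham did not overlap for 1 of the 5 member probes near 10, Col3a1, which was lower in HAL; the background is 2.18% of 2526 probes lower without overlap and 0.515% higher. Readings of HEP and Sham did not overlap for 1 of 5, Lama4, which was lower in HEP, against a background of 0.475% lower and 0.277% higher. These contrasts chose the members, and nothing is read from their shares.

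The sizes near 1 unit rest on the digit counts rather than on the decimals. Compared by decimals alone, HAL minus Sham was -0.08 for Lama4, 0.02 for Col1a2, 0.13 for Col3a1 and 0.10 for Adamts9 probe 1376481_at. HEP minus Sham was -0.01, -0.04, 0.08 and 0.05 for the same probes. Each difference in reading is thus close to a whole unit plus a small change in decimals, or to a mixture of arrays on both sides. Decimals scattered evenly have a mean of 0.5 and an SD of 0.29. The SDs of Col3a1 in Sham and HAL, 0.30 and 0.31, and of Col1a2, 0.32 in both, were no smaller than this, so for the collagens only the side of 10 was readable. Lama4 in Sham and in HEP, with an SD of 0.17 each, was tighter. Lama4 in HAL and Adamts9 probe 1376481_at in Sham, each with 1 array at 10 or above, had SDs of 0.43 and 0.39. This Adamts9 probe had SDs of 0.25 in HAL and 0.23 in HEP, not far below even scatter. Sizes that involve these groups are therefore also poorly readable.

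HEP and HAL were compared to ask whether the members differ between a liver cut off from its blood and a liver removed. This contrast is the difference of the 2 that chose the members, so it is not independent of them. With limma, 0 of 5 member probes passed at an adjusted p under 0.05 and 0 had an unadjusted p under 0.05; the background is 0% called, 0 of 2526 probes, of which 216 had an unadjusted p under 0.05.

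Lama4 probe 1389214_at had a difference between the models, HEP minus HAL, of -0.08 (95% interval -0.41 to 0.25, limma adjusted p = 0.949). Adamts9 probe 1376481_at differed by -0.05 (-0.38 to 0.28, limma adjusted p = 0.958). At 10 or above lay 1 of 7 HAL and 0 of 7 HEP arrays of this Lama4 probe. For this Adamts9 probe 7 of 7 and 8 of 8 did. Arrays read on the same side of 10 cannot differ by a whole unit. The way cells were read thus kept these differences small. The intervals therefore do not exclude a difference between models as large as the one from Sham. For the collagens, where only the side of 10 was readable, 4 of 8 HEP and 0 of 7 HAL arrays of Col3a1 and 2 of 7 HEP and 1 of 7 HAL arrays of Col1a2 probe 1387854_at were at 10 or above. The fitted difference of Col3a1 was 0.40 (-0.06 to 0.85, limma adjusted p = 0.649), against -0.05 from the decimals alone. That of Col1a2 was 0.22 (-0.26 to 0.70, limma adjusted p = 0.844), and it ranged from 0.05 without HEP 8 to 0.34 without HEP 3. Adamts9 probe 1394518_at differed by 0.57 (-0.01 to 1.15, limma adjusted p = 0.585). A missed threshold does not show that the models act alike on any of the 5 probes.

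The rest of the matrix was taken from 8 lists of laminins, basement membrane collagens and linkers, interstitial matrix, proteases, protease inhibitors, assembly enzymes, receptors and growth factor regulators. They held 201 genes, 172 of them with a probe, and 168 besides the members with 256 probes. Of these probes 15 were near 10, 33 had no nine-digit cell and 208 were below 10. The decimals were clustered enough to be compared in 3 and 27 probes of the latter classes. So most matrix genes of the vessels cannot be compared between groups in these data, and the counts that follow cover 45 probes.

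Near 10, 1 of 15 matrix probes passed in HAL minus Sham, against a background of 3.72% of 2526 probes, and 0 of 15 passed in HEP minus Sham, against 2.18%. The median difference of the 15 was -0.09 in HAL and 0.08 in HEP, beside -0.03 and -0.00 over all probes near 10. The probe that passed was of Ltbp4, which encodes a binding protein that stores latent TGF-beta in the matrix. Its Sham arrays lay at 10.53 to 10.91 (median 10.73, n = 6), its HAL arrays at 9.59 to 10.45 (median 9.67, n = 6) and its HEP arrays at 9.79 to 10.64 (median 10.18, n = 7). Sham and HAL did not overlap. Ltbp4 fell by 0.84 in HAL (SE 0.18, limma adjusted p = 0.00992). HEP minus Sham was -0.57 (SE 0.17, limma adjusted p = 0.0862). Without the 3 arrays of lowest median reading, its fall in HAL no longer passed.

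Genes that work beside Lama4 in the basement membrane did not pass. Lama2, the alpha 2 chain typical of astrocyte and muscle basement membranes, read 10.42 ± 0.33 in Sham (n = 6) and 10.33 ± 0.44 in HAL (SD, n = 7), a difference of -0.09 (limma adjusted p = 0.886). Lama5, the other alpha chain of endothelial laminins, differed by -0.03 in HAL and -0.02 in HEP. With 14 nine-digit cells the Lama5 probe is at the edge of the range read as near 10, and it may lie below it. Col4a2, a chain of type IV collagen, differed by -0.25 in HAL and 0.21 in HEP. The partner chains Lamb2 and Lamc1, and Col4a1, Nid1 and Agrn, each had a probe with no nine-digit cell, and their decimals gave no comparison. Smoc2, a matrix linker below 10, differed by 0.12 in HAL in its decimals (limma adjusted p = 0.236).

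Among interstitial matrix genes, Col12a1, a collagen that sits on fibrils, resembled the fibrillar members in direction. It read 10.28 ± 0.38 in Sham (n = 7), 9.70 ± 0.54 in HAL (n = 8) and 9.89 ± 0.55 in HEP (SD, n = 7). Its differences of -0.58 in HAL and -0.39 in HEP did not pass (limma adjusted p = 0.226 and 0.534). With 14 nine-digit cells the Col12a1 probe is at the edge of the range read as near 10, and it may lie below it. Ddr2, a receptor for fibrillar collagens from the list of receptors, differed by -0.47 and -0.38 (limma adjusted p = 0.336 and 0.548). The 5 receptor probes near 10 had a median difference of -0.05 in HAL and 0.13 in HEP. Lox, which cross-links collagen, read 10.15 ± 0.44 in Sham (n = 8) and 10.53 ± 0.30 in HAL (SD, n = 7), a difference of 0.38 (limma adjusted p = 0.324).

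Of the matrix probes compared by decimals, 2 of 3 with no nine-digit cell passed in HAL and 1 of 3 in HEP; the background is 19.5% and 14.4% of 395 probes in either direction. Itga6, a laminin receptor of endothelial cells, had mean decimals of 0.50 ± 0.14 in Sham, 0.78 ± 0.13 in HAL and 0.81 ± 0.11 in HEP (SD, n = 6 each). Its decimals were higher by 0.28 in HAL and by 0.31 in HEP (limma adjusted p = 0.00433 and 0.0018), up to whole units. A second Itga6 probe, below 10, did not pass, with -0.02 in HAL and 0.09 in HEP (limma adjusted p = 0.927 and 0.58). Reck, a membrane-bound inhibitor of metalloproteases, moved by -0.28 in HAL (limma adjusted p = 0.0157) and by -0.22 in HEP (limma adjusted p = 0.0856).

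Below 10, 2 of 27 matrix probes passed in HAL and 1 of 27 in HEP, against 4.33% and 2.30% of 6304 probes. Ltbp2, another protein of the latent TGF-beta binding family, moved by 0.27 in HAL (limma adjusted p = 0.0135) and by 0.18 in HEP (limma adjusted p = 0.127). Adamts10, a relative of Adamts9 that acts on microfibrils, moved by 0.42 in HAL (limma adjusted p = 0.00516) and by 0.38 in HEP (limma adjusted p = 0.00276). With short cells read with leading zeros, neither Adamts10 call held and the HEP difference was -0.17, so its direction is not settled. In HEP minus HAL 0 of the 15, 0 of the 3 and 0 of the 27 matrix probes passed with limma, against 0%, 0.759% and 0.682% of all probes in these classes.

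**Figure D4:**
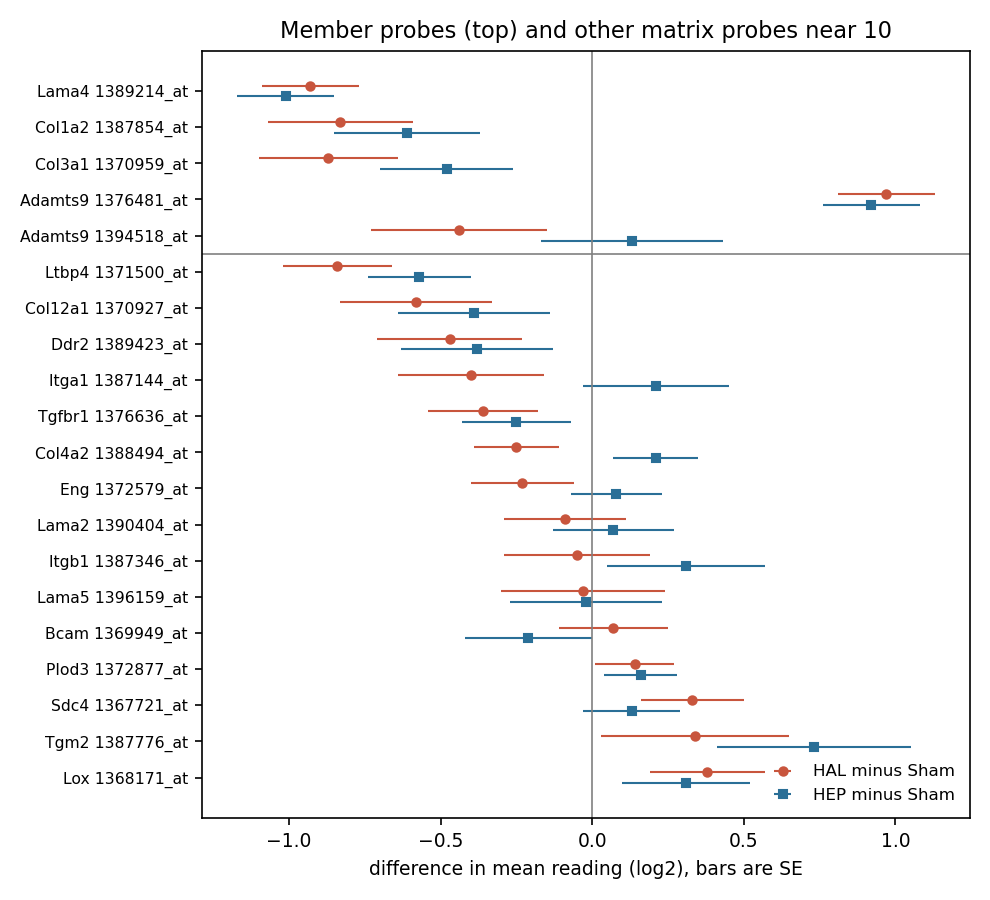
Differences in mean reading (horizontal axis, log2) of HAL and HEP from Sham for the 5 member probes near 10 (top) and the 15 other matrix probes near 10 (below the line), with SE as bars. Lama4, Col1a2 and Col3a1 lie at -1.01 to -0.48 over both models and Adamts9 probe 1376481_at near 0.9; of the others only Ltbp4 passed, in HAL, and the member points were chosen on these contrasts.

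In bulk vessels, fewer cells of a type and less RNA per cell cannot be told apart. The markers of perivascular fibroblasts, the main source of Col1a2 and Col3a1, could not be followed: Dcn, Lum, Igf2, Pdgfra and Col6a1 were at 10 or above on all arrays, but 0 of their 5 probes had clustered decimals. The fibroblasts' part in the lower collagen readings was not tested. Of the endothelial marker probes near 10, 1 of 4 passed in HAL, lower. These 4 probes, of Mfsd2a, Erg, Slc38a5 and Tie1, had a median difference of -0.49 in HAL and -0.23 in HEP. The mean per array, over those of the 4 that were read, ranged from 10.24 to 10.52 in Sham, from 9.57 to 10.10 in HAL and from 9.73 to 10.53 in HEP. Arrays may differ in which of the 4 were read, so these ranges also depend on that. Slc38a5, a glutamine carrier, fell by 0.79 in HAL (limma adjusted p = 0.00633) and differed by -0.53 in HEP (limma adjusted p = 0.102). Of 3 endothelial probes compared by decimals, Slc2a1, the glucose carrier, was higher by 0.32 in HEP (limma adjusted p = 0.00167) and by 0.16 in HAL, up to whole units, while Cldn5, the main tight junction protein, differed by 0.04 and -0.01 and Vwf by -0.06 and -0.08. Neuronal probes near 10 had a median difference of 0.30 in HAL (5 of 7 higher) and -0.06 in HEP (3 of 7 higher). Astrocyte probes near 10 had a median difference of 0.26 in HAL (3 of 4 higher) and 0.07 in HEP (4 of 4 higher). None of these neuronal or astrocyte probes passed. In HEP the decimals of Glul, an astrocyte marker, were higher by 0.32 (limma adjusted p = 0.0139), which did not pass once leading zeros were restored to short cells. Those of a probe below 10 of Mobp, an oligodendrocyte marker, were higher by 0.37 (limma adjusted p = 7.25e-04), while its probe near 10 differed by -0.09 (limma adjusted p = 0.905). The other oligodendrocyte probes near 10, of Cnp and Olig2, differed by -0.67 and -0.31 in HEP. The median of the 3 was -0.31 in HEP, with 0 higher, and -0.09 in HAL, with 1 higher, and none passed. Pericyte markers near 10 had a median difference of -0.02 in HAL and 0.02 in HEP. Of these Atp13a5 fell by 0.79 in HAL (limma adjusted p = 0.0361) and differed by -0.72 in HEP (limma adjusted p = 0.0853). Its fall in HAL no longer passed without Sham 6, 7 or 8, without HAL 1, 2, 5 or 6, or without the 3 arrays of lowest median reading. Aldh1a2, a marker of meninges, fell by 0.62 in HAL (limma adjusted p = 0.0226) and differed by -0.37 in HEP (limma adjusted p = 0.299). Its fall in HAL no longer passed without the 3 arrays of lowest median reading. The part of these cells in the readings of the matrix genes was not tested.

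Across arrays, the readings of the members ran together only loosely. Col1a2 and Col3a1 correlated at r = 0.50 over 18 arrays, Lama4 and Col3a1 at 0.44 over 20 arrays, and Lama4 and Col1a2 at 0.40 over 17. Lama4 and Adamts9 probe 1376481_at correlated at -0.65 over 20 arrays. These values span the 3 groups, so they share the group differences that chose the members.

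By the same measure over at least 18 arrays, each member probe was compared with 863 to 1529 probes of other genes. Only the 3 highest of each search are named, with no test. The searches for the collagens rest on readings of which only the side of 10 was readable. The genes most like Lama4 were Hdac5 (r = 0.89), Map3k20 (0.84) and Pde6b (0.83). The genes most like Col3a1 were Rnpep (0.82), Nrp1 (0.75) and Atp10a (0.74). Col1a2 was most like Atp10a (0.78), Gpr155 (0.70) and Limch1 (0.68). Adamts9 probe 1376481_at was most like Tsen15 (0.78), Hopx (0.77) and Depp1 (0.75), and probe 1394518_at most like Il12a (0.67), Fcer2 (0.63) and Sema6a (0.63). Atp10a stood near both collagens, and none of these genes is in the matrix lists. Atp10a had mean readings of 10.52 in Sham, 9.61 in HAL and 9.71 in HEP.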

How the data were processed

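RNA of cortical microvessels was measured on 24 arrays, 8 each of Sham, HAL and HEP, grouped by the titles of the labels. The authors normalised the arrays with RMA, per the submitters' processing notes, in a version not given in the sources used here. According to the labels' protocols a kit for whole transcripts was used for labelling, although the probes are annotated as those of a 3′ array; why they differ is unknown. The deposited cells are whole numbers with up to 9 digits and were read as what stands after the point in a log2 value of 10 significant digits, with zeros at the ends dropped: of 746376 cells 0 end in 0. Whether the loss lies in the deposit is unknown. This reading was chosen after the table was seen, and the members and gene lists were chosen with earlier results of these data known.

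Probes with 1 to 14 nine-digit cells were read as 9 or 10 plus decimals, and 13.5% of their cells were too short to read and were left out. Other probes were tested on decimals unwrapped around the circular mean where the resultant length was at least 0.6 in every group. limma 3.58.1 in R 4.3.3 fitted group means over all 24 arrays with eBayes, for probes with at least 2 readings in every group, with Benjamini-Hochberg adjustment over all probes of a class (2526, 395 and 6304). Differences of members from Sham were not tested. The fits were tested on simulated data. Python 3.11.15 was used for the digits. Of 31099 probes 20832 had 1 symbol, 436 several and 9831 none. The text names every member probe, list genes that passed or else the list's probe of smallest p in HAL minus Sham, the 3 probes of other genes most like each member probe, and markers at or near 10; the other genes beside these, such as Lama5, Col4a2, Ddr2 and Mobp, were chosen after their values were seen. Alternatives were the digit range, short cells, centring, array weights, the fit of 2 groups, 1 probe per gene, a replicate block, the resultant length, decimals alone, group medians and leaving out arrays. The number of arrays limits the precision of every value.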

Additional observations from a re-analysis of the deposited data

Results flagged for a closer look

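Of 15 groups of member readings tested, 1 held an array far from the others. Sham 2 read 10.46 for Adamts9 probe 1376481_at, the only Sham array above 10, with a gap to the next array of 0.736 of the group's range against a critical value of 0.526 for 8 arrays. Chance marks about 5% of groups in this way. The cell has 8 digits and would read 9.46, within the other Sham arrays, if a last zero had been lost; this was not tested.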

How the results depend on the processing

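Of 377 member differences recomputed under alternatives, 367 moved by less than the spread within groups, and every difference of Lama4, Col1a2, Col3a1 and Adamts9 probe 1376481_at from Sham kept its direction, except with decimals alone. The other 10 all came from the decimals alone, which drop the integer part by construction: 0.13, 0.08 and -0.05 for Col3a1 in HAL minus Sham, HEP minus Sham and HEP minus HAL, 0.10 and 0.05 for Adamts9 probe 1376481_at, 0.02 and -0.04 for Col1a2 and -0.08 and -0.01 for Lama4 against Sham, and -0.02 for Adamts9 probe 1394518_at in HEP minus HAL. Adamts9 probe 1394518_at turned to -0.06 in HEP minus Sham with a replicate block and to -0.02 without HEP 4. Its HAL minus Sham went from -0.44 to 0.10 with decimals alone, a move still within the spread. Leaving out 1 array can hardly move a mean by the whole spread, and most alternatives keep a cell read as 9 or 10. The count of 367 was thus largely fixed by this rule and does not bear on whether cells were read rightly. Adjusted p-values of member probes in HEP minus HAL stayed at 0.507 or above. A range of 3 to 12 nine-digit cells leaves out Lama4 probe 1389214_at and Adamts9 probe 1394518_at. Counts over all probes moved more, and the cause was not tested. Near 10, 42 probes instead of 94 passed in HAL minus Sham without the 3 arrays of lowest median reading (chosen after seeing the data), 127 instead of 55 in HEP minus Sham with array weights, and 29 (without HEP 7) to 137 (without HEP 8) leaving out 1 array. With no nine-digit cell, a resultant length of 0.7 and short cells with leading zeros gave 46 and 36 against 77 probes in HAL minus Sham and 28 and 28 against 57 in HEP minus Sham; HEP minus HAL had 3, with 8 and 19 at lengths of 0.5 and 0.7, 9 after centring and 0 to 18 leaving out 1 array. Below 10 the same settings gave 156 and 132 against 273 in HAL minus Sham and 95 and 73 against 145 in HEP minus Sham, with 87 (without HEP 7) to 182 leaving out 1 array; HEP minus HAL had 43, with 22 at 0.5, 23 with leading zeros and 19 to 51 leaving out 1 array. Short cells with leading zeros turned Adamts10 in HEP minus Sham to -0.17 and left Adamts10 in HAL minus Sham at 0.03. Same-numbered arrays did not deviate together (median correlation 0.00313 in HAL minus Sham, 1 of 8 pairs over 0.1), so the numbers were not taken as pairs. A replicate block gave 75 and 49 probes near 10 against Sham, 1 in HEP minus HAL and 70 below 10 in HEP minus HAL, and Ltbp4 (-0.80, limma adjusted p = 0.153) and Itga6 (0.28, limma adjusted p = 0.0533) in HAL minus Sham no longer passed. Signal over background is unknown here, since levels are read only near 10.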
